A study of Ovis aries with 18 samples.

Results

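The early response shared by 2 agonists of the receptor TLR4 was examined in whole blood of 6 healthy ewes aged about 3 years. Heparinized venous blood of each animal was split into 3 portions that were kept for 90 minutes with phosphate-buffered saline (PBS, the control), with lipopolysaccharide (LPS) at 1 µg/mL or with monophosphoryl lipid A (MPLA) at 10 µg/mL, as the study's methods give them (the labels name the same figures in µg, without a volume), and RNA of each portion was hybridized to 1 Agilent sheep array. The response of an animal was taken as the mean of its log2 LPS and MPLA values minus its log2 PBS value, so all 18 of the 18 sheep arrays entered, as 6 within-animal differences. The comparison asks what the agonists had in common against PBS. Blood was stimulated outside the animal, each agonist was used at 1 amount and 1 time, and agonist and amount cannot be told apart. Human blood, the other arm of the study, was not used here.

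TLR4 is the surface receptor by which monocytes, neutrophils and other myeloid cells recognize the lipid A part of Gram-negative endotoxin, with the help of the co-receptor CD14. LPS is the intact endotoxin, and MPLA is a lipid A derivative that has lost a phosphate group and is used as a vaccine adjuvant. Engagement of the receptor starts kinase cascades that release NF-kappaB and activate AP-1 and interferon regulatory factors, and the first genes transcribed encode cytokines, chemokines and the inhibitors that later shut the response down.

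Levels are given as normalized log2 values, that is, log2 of the processed signal of a probe minus the 75th percentile of its array, so a level of 0 lies at that percentile. The agonist level of an animal is the mean of its LPS and MPLA levels, and a change is the log2 difference between that mean and PBS in the same animal. The arrays differed in brightness, with a 75th percentile between 24.8 and 124.2 intensity units and 23.9% to 45.1% of probes well above background. PBS arrays of animals 170 and 51Y were the dimmest of the PBS arrays, at 24.8 and 27.8 units. The percent of probes well above background was 33.8% with the agonists and 32.9% with PBS (difference 0.86 ± 6.40 percentage points, SD, n = 6, exact sign-flip permutation test p = 0.78), and the log2 75th percentile differed by 0.11 ± 0.64 (SD, n = 6, exact sign-flip permutation test p = 0.69). With 6 animals the smallest p such a test can give is 0.031.

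Both agonists together moved a small set of probes, mostly upward, and the named genes among them included cytokines, chemokines, their inhibitors and enzymes of inflammation. Of 4122 tested probes, limma called 42 at an adjusted p under 0.05 (1.02% of those tested), with 33 higher (0.801%) and 9 lower (0.218%) under the agonists. All 42 moved in the same direction in 6 of 6 animals, as did 131 of the 4122 tested probes (3.18%). The change over all tested probes had a median of -0.05, and 95.9% lay within 0.5 of 0 on the log2 scale. Of the 33 rises, 24 exceeded 4-fold and 13 exceeded 8-fold, whereas 5 of the 9 falls exceeded 2-fold. Without adjustment, 198 probes had p under 0.05, against 206.1 if no probe had changed. In whole blood, a change in the number of cells of a type and a change in RNA per cell cannot be told apart.

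**Figure D1:**
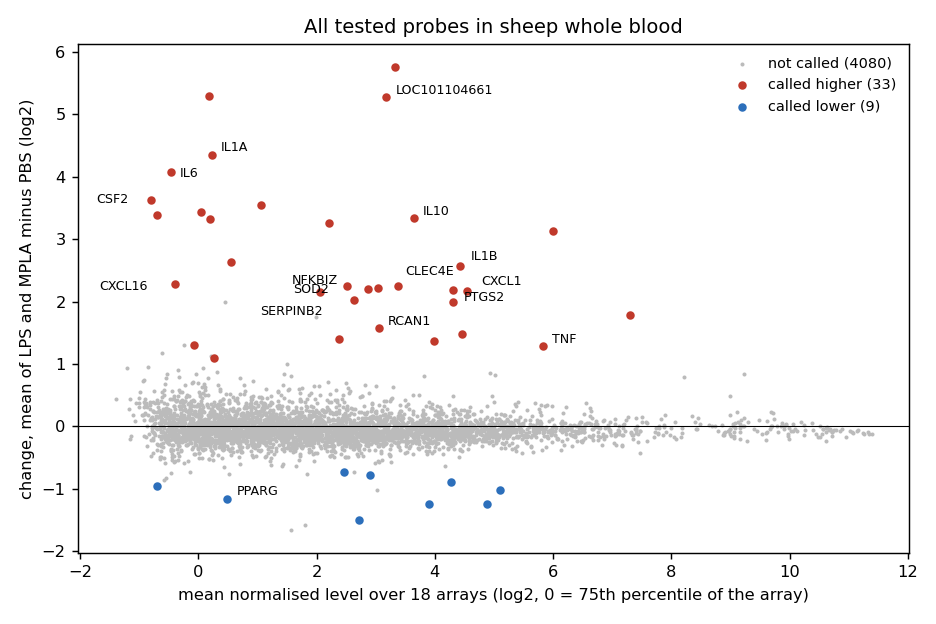
Change of each tested probe (vertical axis, mean of LPS and MPLA minus PBS, log2) against its mean normalized level over 18 arrays (horizontal axis, log2), with the 33 probes called higher in red, the 9 called lower in blue and the named genes labelled at their probe of highest mean signal. Called rises reach 5.76 and lie at low as well as high levels, while the called falls lie between -1.50 and -0.73.

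In 22 of the 33 rises, all 12 agonist arrays lay above all 6 PBS arrays, which was true of 0.534% of tested probes. For 0 of the 9 falls did all 12 agonist arrays lie below all 6 PBS arrays (0.0% of tested probes). A probe was tested when it was well above background on all 6 arrays of at least 1 treatment. Of the 33 rises, 18 were well above background on all 6 PBS arrays, 10 on 1 to 5 of them and 5 on no PBS array, so the latter 2 groups entered the test only through their agonist arrays, and part of their difference is fixed by that filter.

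Among the inflammatory cytokines, 4 of 6 tested genes rose, 0 fell, and the median change of the list was 1.93 on the log2 scale. IL1A, which encodes the cell-associated form of interleukin-1, had PBS levels of -3.64 to -2.09 (median -2.56) and agonist levels of 0.94 to 2.22 (median 1.73) over the 6 animals. No PBS array had it well above background and all 12 agonist arrays did. By this scaling it was at least 7.12-fold higher with the agonists, with a measured difference of 4.36 ± 0.65 (limma adjusted p 3.7e-06, SD with n = 6), and its second probe, also on no PBS array above background, was higher in 6 of 6 animals and called as well.

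IL6, the cytokine that drives fever and the hepatic acute phase response, was likewise not measurable with PBS. Its levels were -4.82 to -2.12 (median -2.95) with PBS and -0.06 to 1.76 (median 0.93) with the agonists. It was on no PBS array above background and by this scaling was at least 4.16-fold higher, with a measured difference of 4.08 ± 1.39 (limma adjusted p 0.00044, SD with n = 6). The groups did not overlap for IL6 or for IL1A. Both entered the test only through their agonist arrays, so part of that separation is fixed by the filter. The lower bounds are given because neither gene was well above background on any PBS array. The IL6 probe sat at the lowest value that an array can return on 5 PBS arrays and the IL1A probe on 3. That value ranged from -4.82 in animal 20 to -2.12 in animal 170 among the PBS arrays. In animal 71Y the PBS level of IL1A was -2.09, above that array's lowest value of -4.25. The measured change of IL6 was largest in animal 20, at 6.58.

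IL1B, the secreted interleukin-1, exceeded background clearly on 5 of 6 PBS arrays and on all agonist arrays. PBS levels ran from 1.05 to 4.78 (median 2.63), and agonist levels from 4.63 to 6.52 (median 5.06), so the highest PBS array overlapped the agonist range. The within-animal change was 2.57 ± 0.97 on the log2 scale, or 5.96-fold (limma adjusted p 0.0012, SD with n = 6), and ranged from 1.41 to 3.58. The highest change is that of animal 170, whose PBS array gave the lowest level and was the one not well above background. TNF, the cytokine that activates endothelium and other leukocytes, had a narrow PBS range of 4.86 to 5.26 (median 4.94) and agonist levels of 5.94 to 6.71 (median 6.26), with no overlap. Its change of 1.28 ± 0.32 (limma adjusted p 0.0012, SD with n = 6), 2.43-fold, was the smallest among the 4 cytokines that rose. IL18, which is stored as a precursor in monocytes, and MIF, which lymphocytes and monocytes also hold preformed, gave changes of -0.36 ± 0.68 and 0.12 ± 0.17 and were not called. With the bounds in place of the measured changes of IL1A and IL6, the median of the list was 1.67. After normexp, an alternative background correction that models spot and local background signals, IL6, IL1B and TNF were not called (limma adjusted p 0.11, 0.12 and 0.17), whereas IL1A was called under all 21 alternatives in which it was tested. Under normexp the changes were 1.77 for IL1A and 1.29 for IL6, which are below the bounds given above, so these bounds hold only for the processed signal. Over the alternatives in which they were tested, the change of IL1B was never below 2.07 and that of TNF never below 1.16. Normexp added an offset of 50, where array 75th percentiles were 24.8 to 124.2 units. The part of the offset in the smaller changes was not tested.

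**Figure D2:**
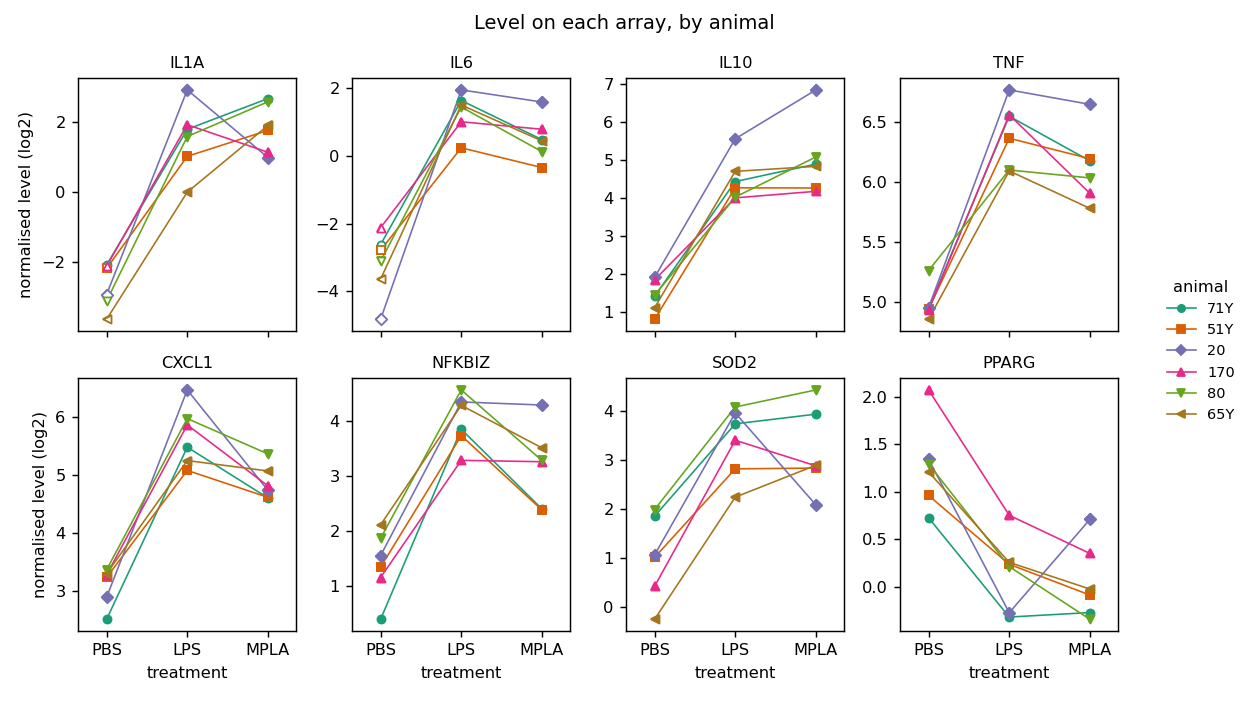
Normalized log2 level (vertical axes, scaled separately) of 8 genes on every array, for PBS, LPS and MPLA (horizontal axes), with 1 line and symbol per animal and open symbols where the probe was not well above background. IL1A and IL6 are open on all 6 PBS arrays; IL10, TNF, CXCL1, NFKBIZ and SOD2 are measured on all 18 arrays and higher with both agonists, and PPARG is lower.

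Of 5 tested chemokines, 2 rose and 0 fell, with a median change of 0.83. CXCL1, a neutrophil attractant of the CXC family, had PBS levels of 2.51 to 3.36 (median 3.25) and agonist levels of 4.84 to 5.66 (median 5.24). The groups did not overlap, and the change was 2.18 ± 0.41, or 4.53-fold (limma adjusted p 4.6e-05, SD with n = 6), with 1.99 ± 0.45 on its second probe. LOC101104661, a protein-coding gene without a standard symbol and not on the list, had the largest change of any gene with an identifier. Its nearest named protein-coding neighbours in the sheep assembly ARS-UI_Ramb_v3.0 are CXCL1 on one side and MTHFD2L on the other, and its product is not identified here. Its PBS levels were -2.14 to 0.39 (median -0.14), its agonist levels were 4.37 to 5.41 (median 4.89), and the change was 5.28 ± 0.70, or 38.8-fold without overlap (limma adjusted p 1.5e-06, SD with n = 6). Its probe stood clear of background on 5 of the 6 PBS arrays, the exception being that of animal 71Y, which had the lowest level and the largest change, 6.51. Under normexp the change was 3.71.

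CXCL16, a chemokine that also serves as a membrane-bound scavenger receptor, exceeded background on 1 PBS array, 6 LPS arrays and 4 MPLA arrays. PBS levels were -3.55 to 0.82 (median -2.13) and agonist levels -0.98 to 1.63 (median 0.50), which overlap. The change of 2.28 ± 1.20 (limma adjusted p 0.012, SD with n = 6) was lost without animal 51Y (adjusted p 0.081) or animal 80 (adjusted p 0.054), with values floored at the lowest signal well above background (adjusted p 0.13) and after normexp (adjusted p 0.41), where the change was 0.71. CXCL8, the sheep interleukin-8, lay far above the 75th percentile already with PBS, at 6.86 to 10.22 with PBS (median 8.76) and 9.03 to 9.95 with the agonists (median 9.46). The groups overlapped, 5 of 6 animals were higher, and the change of 0.83 ± 0.85 was not called (limma adjusted p 0.60, SD with n = 6), with 0.80 ± 0.96 on the second probe. Animal 170, with the dimmest PBS array, gave -0.34 and animal 71Y gave 2.17. XCL1, a chemokine of T cells and natural killer cells, gave 0.34 ± 0.40 and was not called.

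Of 4 tested anti-inflammatory and feedback regulators, 2 rose and 0 fell, with a median change of 1.06. IL10, the cytokine that dampens macrophage activation, had PBS levels of 0.81 to 1.91 (median 1.43) and agonist levels of 4.09 to 6.21 (median 4.61). No agonist array overlapped a PBS array, and the change was 3.34 ± 0.68, or 10.1-fold (limma adjusted p 2.3e-05, SD with n = 6), with 3.26 ± 0.62 on its second probe. IL10 was well above background on all 18 arrays, and among the named genes measured in that way it had the largest change.

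NFKBIZ encodes an inducible nuclear IkappaB protein that is needed for secondary NF-kappaB targets. Its levels rose from 0.39 to 2.11 (median 1.44) with PBS to 3.06 to 4.32 (median 3.58) with the agonists, without overlap, for a change of 2.20 ± 0.46, or 4.59-fold (limma adjusted p 6.3e-05, SD with n = 6). NFKBIA, the classical cytoplasmic inhibitor of NF-kappaB, was well above background on 3 PBS, 5 LPS and 5 MPLA arrays and so was not tested. When probes above background on 4 of 6 arrays of a treatment were admitted, NFKBIA was higher in all 6 animals, at 1.17 ± 0.41 (limma adjusted p 0.012, SD with n = 6). It was admitted only through its agonist arrays, so part of that difference is fixed by the filter. ZFP36, which destabilizes cytokine messenger RNA, gave -0.08 ± 0.20 and was not called.

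Of 2 tested growth-factor cytokines, 1 rose and 0 fell. CSF2, which encodes the granulocyte-macrophage colony-stimulating factor, was on no PBS array above background, on 4 LPS arrays and on 6 MPLA arrays. Levels of -4.25 to -2.12 (median -3.21) with PBS and -0.82 to 2.76 (median 0.11) with the agonists did not overlap. CSF2 was tested only through its MPLA arrays, which fixes part of the difference, and 4 PBS arrays were at their lowest value. By the processed signal CSF2 was at least 2.96-fold higher, with a measured difference of 3.63 ± 1.84 (limma adjusted p 0.0070, SD with n = 6), from 1.97 in animal 51Y to 6.64 in animal 20. The call was lost with floored values (adjusted p 0.56) and after normexp (adjusted p 0.85), where the change was 1.13 and so below that bound. INHBA, the activin A subunit, was well above background on 2 PBS, 3 LPS and 6 MPLA arrays, so it was tested only through its MPLA arrays. It was higher in 5 of 6 animals with a change of 0.93 ± 0.67 and was not called (limma adjusted p 0.16, SD with n = 6), but without animal 20 it was, at 1.13 (adjusted p 0.038).

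Of 4 tested induced enzymes and mediators, 3 rose and 0 fell, with a median change of 2.11. SOD2, the mitochondrial superoxide dismutase, had PBS levels of -0.24 to 1.99 (median 1.04) and agonist levels of 2.57 to 4.25 (median 3.08). All agonist arrays were above all PBS arrays, and the change was 2.26 ± 0.42, or 4.78-fold (limma adjusted p 4.2e-05, SD with n = 6), with 2.15 ± 0.29 on the second probe. SERPINB2, the plasminogen activator inhibitor of monocytes, went from 0.43 to 2.30 (median 1.22) with PBS to 2.94 to 3.77 (median 3.27) with the agonists. Its agonist means did not overlap the PBS levels although single agonist arrays did, and it rose 4.05-fold, by 2.02 ± 0.40 (limma adjusted p 6.3e-05, SD with n = 6).

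PTGS2, the inducible cyclooxygenase of prostaglandin synthesis, varied more among animals. PBS levels of 1.05 to 4.38 (median 3.08) and agonist levels of 4.55 to 5.49 (median 5.07) gave a change of 2.19 ± 0.96, or 4.57-fold (limma adjusted p 0.0039, SD with n = 6). The lowest single agonist array, at 3.62, lay within the PBS range. The change was 1.07 in animal 170 and 3.53 in animal 71Y. KYNU, kynureninase of the tryptophan pathway, gave 0.62 ± 0.61, above 0 in 5 of 6 animals, and was not called (limma adjusted p 0.66, SD with n = 6). RCAN1, an inhibitor of the phosphatase calcineurin and a member of none of the lists, rose 2.98-fold, by 1.57 ± 0.71 (limma adjusted p 0.0070, SD with n = 6). Its PBS levels were 1.02 to 3.09 (median 1.93) and its agonist levels 2.68 to 4.48 (median 3.53), which overlap, and the call was lost under 4 of 21 alternatives, namely normexp (adjusted p 0.078), no filter on dim probes (0.050), without animal 51Y (0.058) and without animals 170 and 51Y (0.071).

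CLEC4E, the C-type lectin Mincle that senses mycobacterial and damage-associated glycolipids, was the 1 of 3 tested pattern recognition genes that rose, while 0 fell. PBS levels of 1.07 to 2.89 (median 1.84) and agonist levels of 3.26 to 5.37 (median 3.94) did not overlap, for a change of 2.26 ± 0.42, or 4.79-fold (limma adjusted p 4.2e-05, SD with n = 6), and 2.22 ± 0.48 on the second probe. CD14, the co-receptor for LPS, had PBS levels of 1.54 to 2.58 (median 1.70) and agonist levels of 1.11 to 2.03 (median 1.48). It was lower in 6 of 6 animals, with changes of -0.59 to -0.15, and the mean of -0.40 ± 0.16 was not called (limma adjusted p 0.57, SD with n = 6). Its second probe was lower in 5 of 6 animals, at -0.30 ± 0.33, and was not called. TLR6, which pairs with TLR2 for bacterial lipopeptides, gave 0.10 ± 0.25 and was not called.

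PTX3, a soluble long pentraxin that opsonizes microbes, was not tested because neither of its probes was above background on 6 arrays of a treatment. With the filter of 4 of 6 arrays it was higher in 6 of 6 animals and called on both probes (limma adjusted p 0.018 and 0.048). Neither probe was above background on any PBS array, so both were admitted only through agonist arrays and part of their difference is fixed by that filter. The brighter probe was at least 1.56-fold higher. The other was above background on 4 LPS and 3 MPLA arrays, and no bound is given for it. Most of the pathway itself could not be followed on this array. The probe for TLR4 was well above background on 3 of 18 arrays and those for the adaptor MYD88 and the transcription factor IRF3 on 0, and 2 of the 5 TLR4 signalling genes on the array were tested, of which 0 were called. IL12B, which encodes a subunit shared by interleukins 12 and 23, was above background on 1 array, and no change is given for it.

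Of 4 tested early response regulators 0 were called in either direction, with a median change of 0.50. ETS2, a transcription factor downstream of growth factor and TLR signals, was higher in 6 of 6 animals, with PBS levels of 3.53 to 5.61 (median 4.31) and agonist levels of 4.55 to 5.88 (median 5.10), which overlap. Its change of 0.85 ± 0.54 missed the threshold (limma adjusted p 0.12, SD with n = 6). It was called under 7 of 21 alternatives, among them without animal 170 (adjusted p 0.015) and with all 18 arrays and the animal as replicate block (adjusted p 0.046). The transcription factor MYC gave 0.51 ± 0.35, the antiproliferative BTG2 0.49 ± 0.63 and the cAMP-responsive repressor CREM 0.19 ± 0.45, and none of these was called. The immediate early genes FOS and EGR1 were above background on 0 and at most 4 of 18 arrays.

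PPARG was the only named gene called lower. It encodes a lipid-activated nuclear receptor that limits inflammatory transcription in macrophages and directs lipid storage. PBS levels of 0.73 to 2.07 (median 1.25) and agonist levels of -0.29 to 0.55 (median 0.10) gave a change of -1.16 ± 0.23, or 2.24-fold lower, in 6 of 6 animals (limma adjusted p 0.0012, SD with n = 6). The agonist means did not overlap the PBS levels, but the highest agonist array, at 0.75, was above the lowest PBS array. Of 5 tested genes of lipid metabolism and nuclear receptors, it was the 1 called, and the median of the list was -0.23. PLIN2, which coats lipid droplets, gave 0.42 ± 0.84 and was not called. PPARG was called under 20 of 21 alternatives and missed the threshold when every probe was tested without a filter (adjusted p 0.060).

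**Figure D3:**
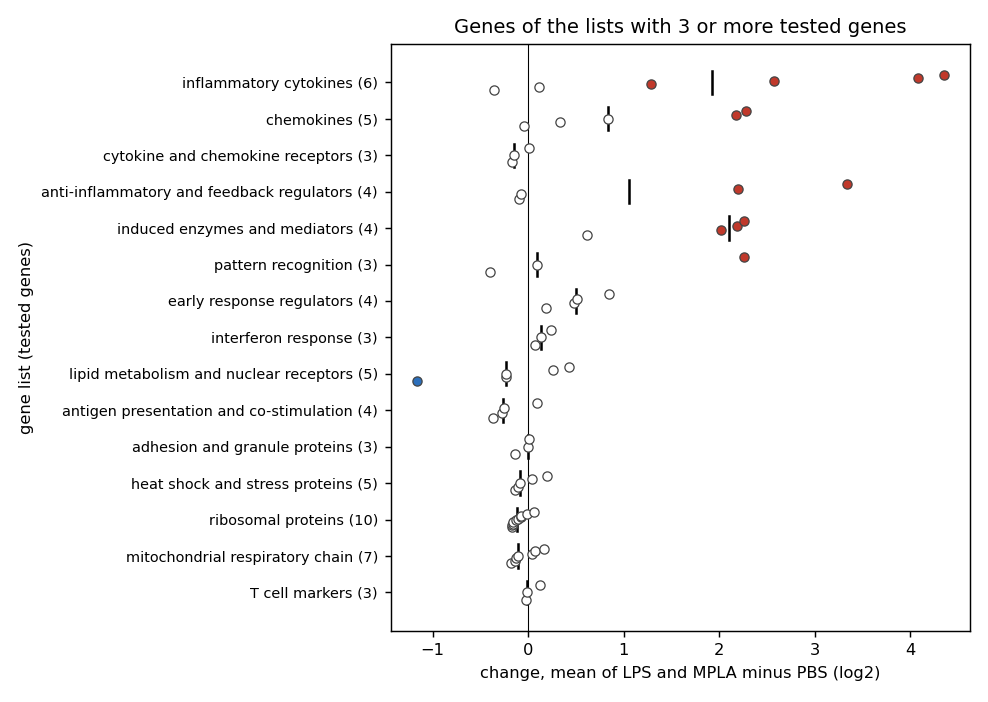
Change of each tested gene (horizontal axis, log2, mean over 6 animals) by gene list (vertical axis, number of tested genes in parentheses), with filled red symbols for genes called higher, blue for the 1 called lower, open symbols for genes not called and a black bar at the list median. Called genes lie in 6 of the lists shown, and every gene of the heat shock, ribosomal, mitochondrial and T cell lists lies within 0.20 of 0.

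Genes that serve basic cell functions or mark cell types gave no call. Changes of the 10 tested ribosomal protein genes ran from -0.17 to 0.06 (median -0.12), those of the 7 mitochondrial respiratory chain genes from -0.18 to 0.17 (median -0.10), and those of the 5 heat shock and stress genes from -0.13 to 0.19 (median -0.08). These are means over animals. In single animals the list medians ran from -0.59 to 0.38, from -0.55 to 0.19 and from -0.14 to 0.44, in that order. Interferon response genes, which the second arm of TLR4 signalling induces, had 3 tested members, with changes of 0.08 to 0.24 and 0 calls. Among 4 tested genes of antigen presentation and co-stimulation 0 were called, with a median of -0.26. In that list the co-stimulatory ligand CD86 gave -0.37 ± 0.37 (-0.08 ± 0.14 on its second probe) and the lysosomal protease CTSS -0.27 ± 0.47. The 3 tested cytokine and chemokine receptor genes had a median of -0.15, and the 3 adhesion and granule genes of -0.00.

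Markers of blood cells were followed as well. Hemoglobin beta was the 1 erythroid gene tested, the 3 tested T cell markers had changes of -0.02 to 0.13 with 0 calls, and the 2 tested monocyte markers were CD14 and LYZ, the lysozyme gene, at -0.14 ± 0.32. Summed over tested markers and as multiples of the 75th percentile of the array, the T cell level was 222 to 485 with PBS and 235 to 500 with the agonists. For monocyte markers the summed level was 26.8 to 53.8 and 23.4 to 51.6, and for hemoglobin beta it was 1200 to 5847 and 974 to 3726, with PBS and the agonists in that order. The 1 tested gene of natural killer and cytotoxic cells and the 2 tested housekeeping genes gave 0 calls. No gene of the B cell, neutrophil or platelet lists could be tested (0 of 3 on the array), so the neutrophils of these samples were not followed by a marker. The part of cell composition in the changes above was not tested.

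Of the 42 called probes, 13 rises and 8 falls carry no gene name in the sources used here, and those below were chosen for description by the size of the change. A_70_P003541 had the largest change of all tested probes, from PBS levels of -2.12 to 1.54 (median -0.62) to agonist levels of 4.50 to 6.48 (median 5.13). That was 54.2-fold, or 5.76 ± 0.77 (limma adjusted p 1.5e-06, SD with n = 6), and 3.94 under normexp. Its lowest PBS level, in animal 170, was not well above background. A_70_P019681 was on no PBS array above background and was by the processed signal at least 8.55-fold higher, with a measured difference of 5.30 ± 1.86, the widest spread of any called probe. Its PBS levels ran from -4.82 in animal 20 to -2.12 in animal 170, the lowest values those arrays returned, so floors enter that spread. Under normexp its change was 1.97, below that bound, and it was not called (adjusted p 0.077). A_70_P005636, A_70_P012436 and A_70_P058706 had measured rises of 3.54, 3.43 and 3.32 on the log2 scale. They were well above background on 3, 2 and 2 of 6 PBS arrays, so they were tested only through their agonist arrays, and on 3 PBS arrays A_70_P012436 and A_70_P058706 sat at the lowest value an array returned. Under normexp the changes were 1.67, 1.31 and 1.25, and A_70_P012436 and A_70_P058706 were not called (adjusted p 0.17 and 0.082).

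Among the unnamed falls, A_70_P017136 fell most, from PBS levels of 2.51 to 4.85 (median 3.82) to agonist levels of 1.63 to 2.92 (median 2.17), a change of -1.50 ± 0.57 (limma adjusted p 0.0035, SD with n = 6). A_70_P035666 gave -1.25, A_70_P056276 -1.24, A_70_P059676 -1.02 and A_70_P053281 -0.96. The last was well above background on 6 PBS but only 2 LPS and 4 MPLA arrays, so it was tested only through PBS, and under normexp it was at -0.28 and not called. In all 5 the highest agonist array lay above the lowest PBS array. The number of falls went from 9 to 3 without animal 51Y or animal 80 and to 4 without animal 65Y. It was also 3 with normexp, 3 without the replicate block, 1 without the filter on dim probes and 14 with array weights.

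Each agonist was also set against PBS alone, with the same 6 PBS arrays in both, so the 2 sets of values are not independent. Of the 33 rises in the mean, 27 were called with LPS and with MPLA, 4 with LPS only, 1 with MPLA only and 1 with neither. Of the 9 falls, 2 were called with both, 1 with LPS only and 6 with MPLA only. A further 8 probes were called with 1 agonist and not in the mean, 3 of them with LPS and 5 with MPLA. Differences between these counts were not tested.

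PPARG gave -1.12 ± 0.31 with LPS and -1.21 ± 0.41 with MPLA. IL10 gave 3.08 ± 0.61 and 3.60 ± 0.83, IL1A 4.21 ± 0.94 and 4.51 ± 0.97, and TNF 1.42 ± 0.35 and 1.14 ± 0.33 for LPS and MPLA in that order. These genes were called with either agonist. PTGS2 was 2.63 ± 0.97 with LPS and 1.76 ± 1.09 with MPLA, the latter just short of the threshold (limma adjusted p 0.052). CXCL16 was 2.18 ± 1.24 with LPS and 2.38 ± 1.71 with MPLA, and only the former was called (limma adjusted p 0.039 and 0.090). Among the 16 named genes called in the mean, RCAN1 was the 1 called with MPLA but not with LPS, at 2.12 ± 0.89 (limma adjusted p 0.0048) and 1.03 ± 0.60 (limma adjusted p 0.11). INHBA, not called in the mean, gave 0.36 ± 0.99 with LPS and 1.504 ± 0.72 with MPLA, and the latter was called (limma adjusted p 0.016), on the arrays through which it was tested. Among the falls, A_70_P017136 gave -0.89 with LPS and -2.11 with MPLA, and A_70_P056276 gave -0.61 and -1.88, so the mean of the agonists stands between unlike values there, and the difference between the agonists was not tested.

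**Figure D4:**
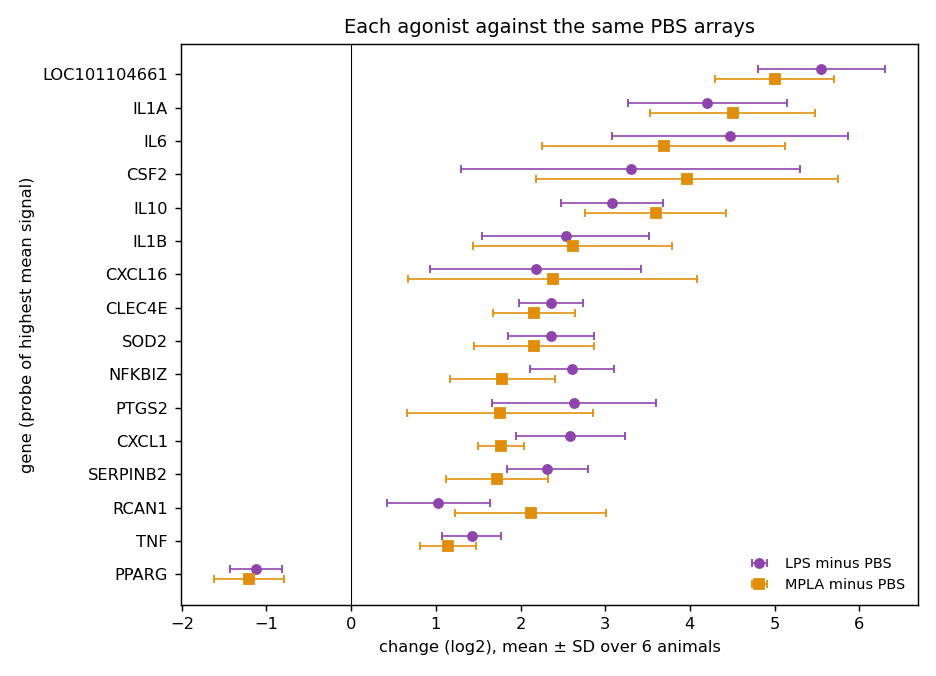
Log2 change against PBS (horizontal axis, mean ± SD over 6 animals) for LPS (purple circles) and MPLA (orange squares) in the 16 named genes called in the mean of both (vertical axis). Both agonists lie on the same side of 0 for every gene shown, and RCAN1 has the lowest LPS value of the rises, at 1.03.

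Animals differed in the size of the measured changes. The SD over animals had a median of 0.41 over all tested probes, 0.66 over the 33 rises and 0.38 over the 9 falls. A rise was largest in animal 20 for 11 of the 33 probes, in 65Y for 8, in 71Y for 7, in 170 for 4, in 80 for 3 and in 51Y for 0. It was smallest in animal 170 for 13 and in animal 51Y for 12. These are the animals with the dimmest PBS arrays, where the lowest value an array could return was -2.12 and -2.79, against -4.82 in animal 20. Over all tested probes the median change was -0.29 in animal 170, -0.24 in 80, -0.19 in 51Y and 0.02 to 0.18 in the others. These shifts enter the counts above. The median over the 33 rises ran from 2.22 in animal 170 to 2.72 in 65Y. Animal 170 also had the widest spread over all tested probes, with a median absolute deviation of 0.47 against 0.18 to 0.28 in the other animals, and it gave the largest fall for 6 of the 9 falls. Its PBS and LPS arrays were on slide 1 and its MPLA array on slide 3, while each other animal had its arrays on 1 slide. With slide as a further term in the 18-array fit, 44 probes were called, 41 of them among the 42. Without animals 170 and 51Y, 37 probes were called, 34 higher and 3 lower, of which 34 were among the 42.

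**Figure D5:**
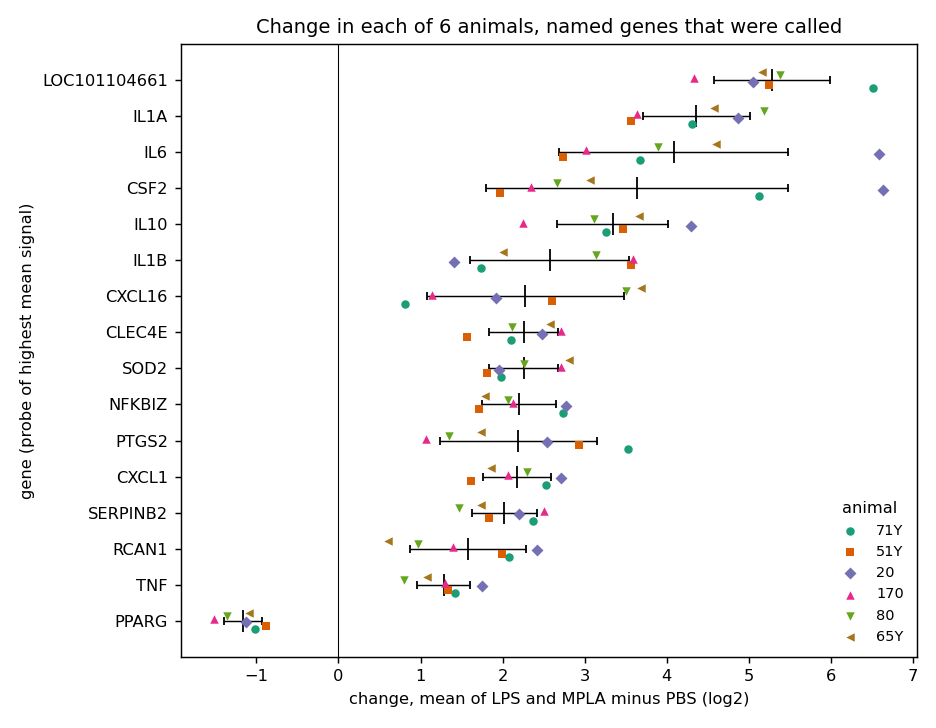
Log2 change, mean of LPS and MPLA minus PBS (horizontal axis), in each of 6 animals (symbols) for the 16 named genes called (vertical axis), with a vertical tick at the mean and a bar for the SD. All animals lie above 0 for the 15 rises and below 0 for PPARG, and the spread is widest for CSF2, from 1.97 to 6.64. CSF2 was on no PBS array well above background and on 4 at the lowest value, so array floors enter its spread.

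Of the 16 named genes called, 9 were called under every alternative in which they were tested. The 9 genes were LOC101104661, IL1A, IL10, CLEC4E, SOD2, NFKBIZ, PTGS2, CXCL1 and SERPINB2, and 5 genes, IL1A, IL10, CLEC4E, SOD2 and CXCL1, were called on 2 probes each. Under normexp the changes of the 9 genes ran from 1.43 for SERPINB2 to 3.71 for LOC101104661, against 2.02 to 5.28 by the processed signal. The other 7 lost the call at least once: IL6, CSF2, IL1B, CXCL16, RCAN1, TNF and PPARG. Among them TNF, IL6 and IL1B lost it under normexp alone.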

How the data were processed

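Blood RNA of 6 sheep was measured under PBS, LPS and MPLA on 18 1-colour Agilent sheep arrays (design 019921). The authors deposited scanner files of Agilent Feature Extraction 11.5.1.1, whose processed intensity is background-subtracted, and a table of ratios of that intensity to a divisor near the 75th percentile of the array (0.98 to 1.00 of it, except 0.79 on 2 arrays). The scale of the table was worked out here by comparison with the scanner files. The authors' amplification kit for each array is not given in the sources used here. Where signals were below a floor, the software returned a common low value, which 32.0% to 52.5% of probes took on an array.

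Spots of a probe were averaged, 15008 non-control probes were scaled as log2 minus the 75th percentile, and the 4122 probes well above background on all 6 arrays of a treatment were tested. No probe was saturated. The 6 within-animal differences were fitted with limma 3.58.1 in R 4.3.3 (intercept only, eBayes, two-sided), with Benjamini-Hochberg adjustment over all tested probes and a threshold of 0.05. The fit was tested on simulated data. Animals are named in the sample titles, which is where the pairing comes from, and same-animal deviations from treatment means had a mean correlation of 0.59 (lowest of 18, 0.13). Where several probes of a gene were tested, the one with the highest mean signal stands for it. For a probe on no PBS array above background, "at least N-fold" sets the agonist mean against the mean over PBS arrays of the higher of the lowest signal well above background and its own signal.

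Of 2200 probes with a RefSeq accession, 1265 were named through the gene table of ARS-UI_Ramb_v3.0, and 7 more from the study's own table. Of the tested probes, 446 had a name, for 378 genes. Named genes were the called ones with the same direction in 6 animals (up to 20 that rose and 10 that fell most), the 5 unnamed probes that rose and the 5 that fell most, and genes of the lists. RCAN1 and LOC101104661 entered by the size of the change. The members, lists and tests were chosen with earlier results of these data known. List counts and medians therefore carry no p. Interferon genes are given as a group only. Alternatives covered normalization, background correction (normexp, offset 50, on the median spot signal), the deposited ratios, the filter on dim probes, a floor, flagged spots, the block, the slide, array weights, the test, the probe and list summary, and each animal left out. Probe and promoter sequences were not used here. Precision is limited by the number of arrays.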

Additional observations from a re-analysis of the deposited data

Results flagged for a closer look

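Among 47 groups of 6 animal values that were examined, 2 held a value far from the other 5, by Dixon's criterion, and chance alone gives about 1 in 20 such groups. For the unnamed probe A_70_P058706, the change in animal 80 was 5.001 on the log2 scale, and in the other animals it was 2.61 to 3.24. The PBS level of animal 80 for this probe, -3.11, was not well above background and equals the lowest value of that array, so the change is a difference from that floor. For the median of the genes of lipid metabolism and nuclear receptors, animal 170 stood at -0.99, and the other animals at -0.36 to -0.01. The PBS array of animal 170 was the dimmest of the 18, with a 75th percentile of 24.8 intensity units. Its part in that value was not tested.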

How the results depend on the processing

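The 42 calls (33 higher, 9 lower) became 24 with normexp (21 and 3), 28 when probes had to be above background on all 18 arrays (20 higher), 69 by the methods' t-test at its threshold (52 and 17) and 25 after Benjamini-Hochberg adjustment of it (21 and 4). Falls were 1 with no filter on dim probes, 3 with no replicate block and 14 with array weights. Leaving out each animal gave 32 to 47 calls, 29 to 38 rises and 3 to 9 falls, and without animals 170 and 51Y, an alternative chosen after seeing the data, there were 3 falls. All 18 arrays with the animal as replicate block gave 49 calls, 42 of them shared, against 33 with no replicate block. All 24 calls under normexp were among the 42. Of the 16 named genes called, the block changed no call, and without it CXCL16 was lost (limma adjusted p 0.21).

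Every called named gene kept its direction under each alternative run, and list medians did except in 8 lists whose medians lay between -0.26 and 0.14. With normexp, the inflammatory cytokines had a median of 1.22 and the induced enzymes of 1.46. As a mean over genes, induced enzymes were at 1.77 and pattern recognition at 0.65. On slide 1 alone, with 1 whole animal, inflammatory cytokines were at 1.58, feedback regulators at 1.90, early response regulators at 0.84, antigen presentation at 0.31, ribosomal proteins at 0.38 and T cell markers at 0.11. On slide 3 alone, receptors were at -0.36 and induced enzymes at 1.57. Chemokines were at 1.24 without animals 170 and 51Y. The cause of these shifts was not tested. Counts of calls were not made within a slide, since none held 3 whole animals, and genes dim on some arrays have no value under the filter on all 18. A planned description of promoter motifs was not run. Signal over background limits IL1A, IL6 and CSF2, whose bounds hold for the processed signal and not under normexp (1.77, 1.29 and 1.13 on the log2 scale).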
